A study of Schmidtea mediterranea with 6 samples.

Results

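The contigs described here encode matrix and secreted or membrane proteins of the planarian *Schmidtea mediterranea* whose transcripts the study assigned to cathepsin+ cells, by the atlas cluster in which each contig was most enriched in a published single-cell atlas. Of 765 contigs that the study's supplementary tables list with a protein category, 72 carried this assignment. Of these, 5 were left out (*spon1* and contigs matching FBN2, MRC1, CTSC and ADAM10), because they were in the study's separate gene lists or in a fixed list of contigs treated apart, and 67 remained. The count table held 28742 contigs, and all 67 were in it. Of the 67, 31 were in the matrisome itself (20 of high and 11 of low confidence of extracellular location) and 36 were proteins that the study set aside from it, 29 with a transmembrane segment and 7 without a signal peptide.

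RNA was read from tail fragments of asexual CIW4 animals in 6 libraries, each a pool of 5 tails. The 3 control libraries came from animals fed double-stranded RNA of *unc-22*, a *Caenorhabditis elegans* gene, and the 3 *hmcn-1(RNAi)* libraries from animals fed *hmcn-1* double-stranded RNA, with 4 feedings over 13 days in both conditions. *hmcn-1* encodes hemicentin-1, a large extracellular matrix glycoprotein, and the comparison asks how its reduction affected transcripts early in the phenotype. RNAi by feeding acts in the whole animal, and each library averages over its pooled tails.

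Cathepsin+ cells are a broad planarian class named for its lysosomal cathepsin transcripts, and it takes in glia, pigment cells and branched parenchymal cells, several of which engulf material. Cathepsins digest proteins in lysosomes and, when secreted, in the matrix. Plexins are cell-surface receptors for semaphorins, and Notch receptors bind Delta and Jagged ligands on neighbouring cells. Names such as dd_329 stand for contig dd_Smed_v6_329_0_1 and its like, and a gene symbol beside one is its best human match, not an established ortholog.

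The libraries held between 6374450 and 11887127 reads, and 15333 contigs passed the filter on low counts. All 15 pairs of libraries differed by more than sampling noise (chi-square per degree of freedom 2.07 to 7.985), so each library was counted once. *hmcn-1* itself fell in every *hmcn-1(RNAi)* library, to 18.48, 18.49 and 16.66 CPM (counts scaled to a common library total) from 205, 206 and 204 in controls, which left 8.71% of the control level (log2 fold change -3.53 ± 0.06, SE; adjusted p = 7.39e-31, edgeR's quasi-likelihood test, adjusted by Benjamini-Hochberg over all contigs tested, as is every adjusted p below unless another tool is named). Nothing in the labels says that the 3 tail pools of a condition were separate RNAi experiments, so p-values measure the spread between these pools only.

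None of the 65 contigs that passed the filter was called at an adjusted p under 0.05 by edgeR. Over all 15333 contigs tested 173 were called (1.13%), a share at which a count of 0 among 65 says little about these contigs. The count was 5 with no filter on low counts (1.24% of all contigs in that fit). It was 2 with a replicate block (1.9%) and 2 without control replicate 1 (1.63%). DESeq2 called 1 of them (2.43% of the contigs it adjusted), and 0 when run without its independent filtering (0.515% of all contigs). With limma-voom 0 were called (0.476% of all contigs). Under an adjusted p of 0.10 there were 3 (dd_329, the plexin dd_12133 and *mt-mmpA*), against 1.81% of all contigs. At an unadjusted p under 0.05 there were 11, or 16.9%, beside 11.0% of all contigs.

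Small differences leaned upward. The fitted difference was above 0 for 47 of the 65 contigs and below 0 for 18, where 50.0% of all contigs tested were above 0. The median log2 fold change was 0.07 (middle 50% from -0.01 to 0.14), beside 0.00 over all contigs (-0.09 to 0.10). Of the 11 with an unadjusted p under 0.05, 10 were higher in *hmcn-1(RNAi)* (5.5% of all contigs were higher at that level) and 1 was lower (5.52%). For 12 contigs every library of one condition lay above every library of the other, 8 higher and 4 lower in *hmcn-1(RNAi)*, beside 15.6% of all contigs (7.81% higher and 7.78% lower). The 65 contigs were measured in the same 6 libraries and are not replicates of the condition.

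**Figure D1:**
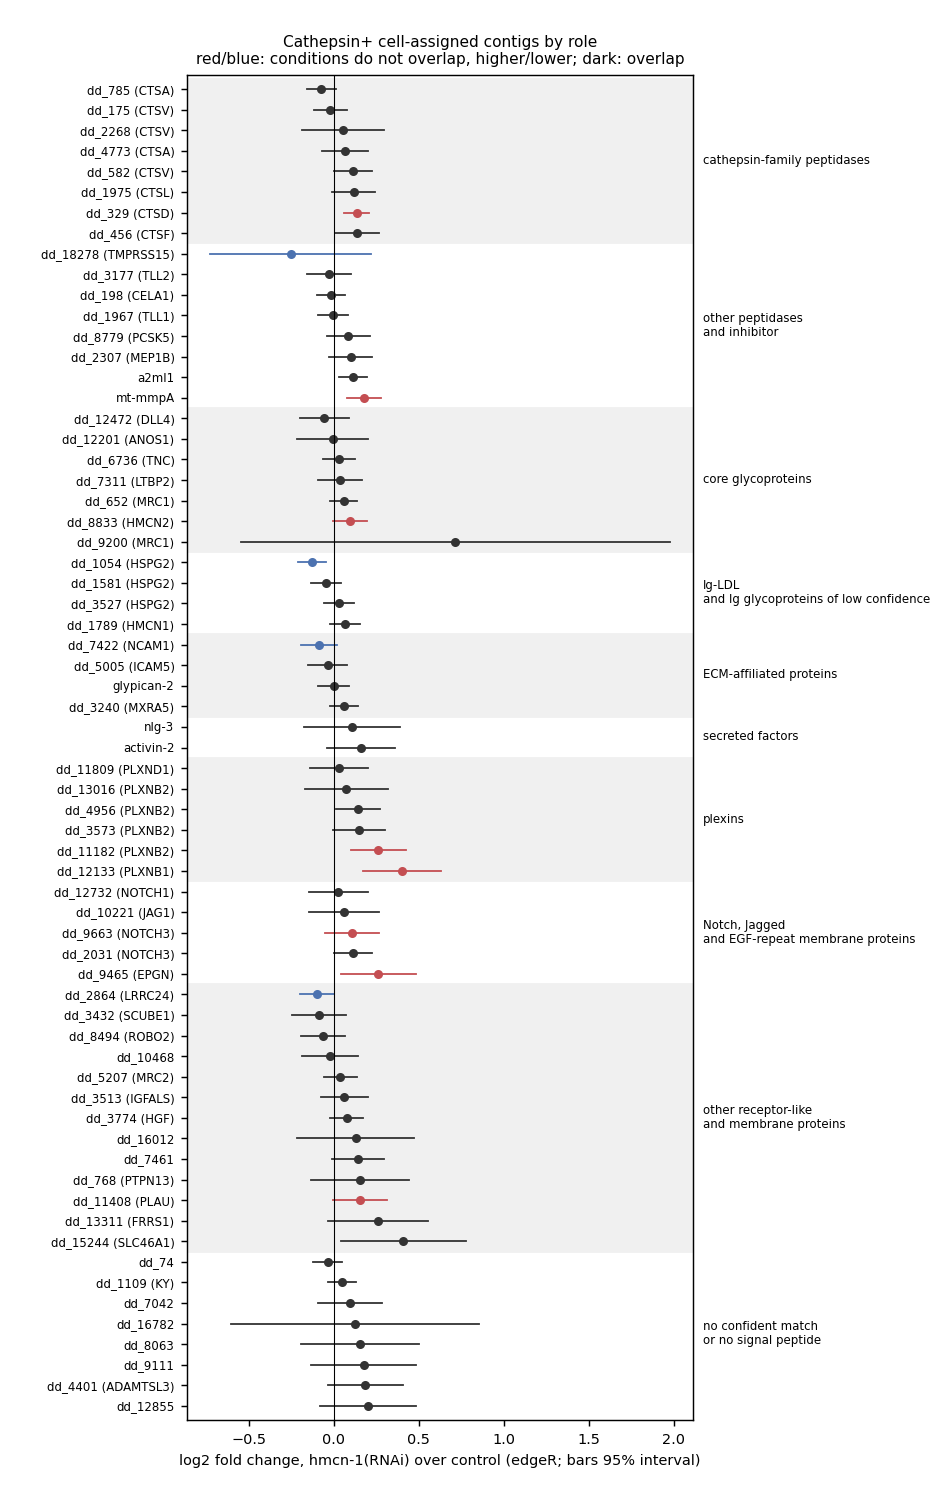
Each point is the log2 fold change of one contig, *hmcn-1(RNAi)* over control, with its 95% interval from edgeR, grouped by role for the 65 contigs tested. Points run from -0.25 for dd_18278 to 0.71 for dd_9200, most lie slightly right of 0, and colored points mark the 12 contigs whose conditions do not overlap.

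One library carried much of the upward lean. *hmcn-1(RNAi)* replicate 1 was the highest of the 6 libraries for 33 of the 65 contigs (50.8%), while it was the highest for 16.4% of all contigs tested. In this library the contigs lay a median of 0.08 above their own mean on the log2 scale, whereas in *hmcn-1(RNAi)* replicates 2 and 3 the medians were 0.01 and -0.01. Control replicates 2 and 3 were the lowest library for 18 and 16 contigs, with medians of -0.04 and -0.04. Without *hmcn-1(RNAi)* replicate 1, 42 of 65 contigs were higher with a median of 0.03, and 8 had an unadjusted p under 0.05 (8.92% of all contigs).

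Control replicate 1 also stood apart. Over all contigs it differed from control replicates 2 and 3 by a chi-square per degree of freedom of 7.985 and 6.463, whereas those differed from each other by 2.472. Without it 49 of the 65 contigs were higher with a median of 0.07, and 19 had an unadjusted p under 0.05, 17 of them higher (11.3% of all contigs either way). Without any one of the other 4 libraries that count was between 8 and 14 (9.33% to 10.1% of all contigs).

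**Figure D2:**
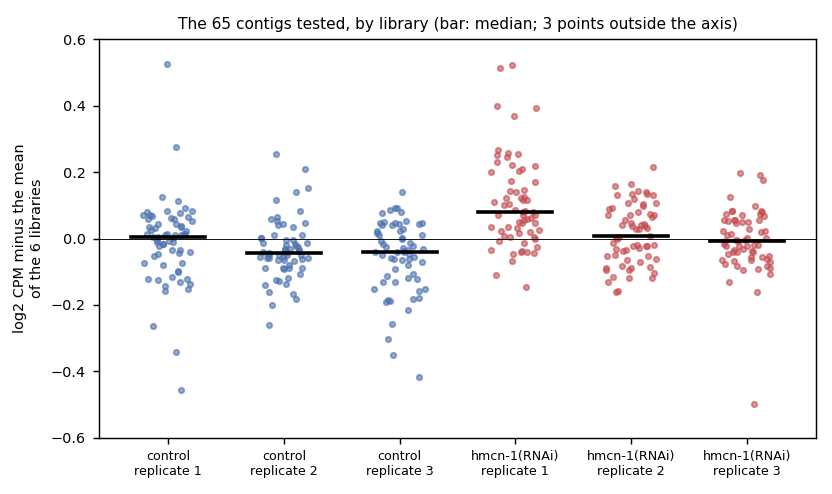
Each point is one of the 65 contigs in one library, as log2 CPM minus that contig's mean over the 6 libraries, and the bar is the median of the library. The points of *hmcn-1(RNAi)* replicate 1 sit highest with a median of 0.08, and those of control replicates 2 and 3 sit lowest at -0.04.

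Because whole tails were sequenced, a change in the number of cathepsin+ cells and a change in RNA per cell cannot be told apart. The class was present in every library by the study's own cathepsin+ probe genes, which are not among the 67. *AQP1* (dd_1103), a water channel, measured 45.9, 43.8 and 44.2 CPM in controls and 50.8, 55.0 and 47.1 CPM in *hmcn-1(RNAi)*. *PTPRT* (dd_10872), a receptor tyrosine phosphatase, measured 25.6, 21.9 and 16.1 CPM in controls and 30.8, 25.6 and 27.1 CPM in *hmcn-1(RNAi)*. Both leaned the same way as the 67 contigs, *AQP1* without overlap between conditions, and neither passed the test (log2 fold changes 0.19 ± 0.07 and 0.41 ± 0.13; adjusted p = 0.257 and 0.234, edgeR).

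Of the markers of other cell types, the contractile genes of muscle fell. Summed over these 7 genes, all detected, the level was 8995 to 9550 CPM in controls and 7965 to 8213 CPM in *hmcn-1(RNAi)*. All 7 were lower and 4 of them passed the test (1.13% of all contigs were called). Of 4 other muscle markers 3 were lower and 1, *phmus-1*, was higher (0.40 ± 0.16). None of the 4 passed the test, and 2 lower and 1 higher had an unadjusted p under 0.05 (11.0% of all contigs). Of 8 intestine markers 7 were higher and 0 passed the test (3 at an unadjusted p under 0.05, beside 11.0% of all contigs). Their sums were 13800 to 16470 CPM in controls and 15890 to 16190 CPM in *hmcn-1(RNAi)*. The 3 intestinal progenitor genes *hnf4*, *prox-1* and *gata4/5/6* were all lower (-0.07, -0.02 and -0.19). Of these, *gata4/5/6* was lower without overlap and at an unadjusted p under 0.05, and 0 passed the test. The 2 epidermal markers summed to 1275 to 1300 CPM in controls and 1157 to 1248 CPM in *hmcn-1(RNAi)*, and the 3 neural markers to 158 to 201 CPM and 136 to 145 CPM. In each of these lists 0 passed the test and 1 had an unadjusted p under 0.05 (11.0% of all contigs). Of single genes, the epidermal lineage gene *prog-2* and the cholinergic gene *ChAT* fell (-0.14 ± 0.04 and -0.28 ± 0.06; adjusted p = 0.0470 and 0.0223, edgeR), while *agat-3* and the serotonin transporter gene *sert* had -0.05 and 0.03 and did not pass. The part of these differences in the values of the cathepsin+ cell-assigned contigs was not tested.

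Cathepsin-family peptidases, the enzymes that gave the class its name, leaned upward. Of 8 measured members, 6 were higher and 2 lower in *hmcn-1(RNAi)*, 3 at an unadjusted p under 0.05, all higher (5.5% of all contigs), and 0 passed the adjusted test. Their median log2 fold change was 0.09, and 0.05 without *hmcn-1(RNAi)* replicate 1 or 0.06 without control replicate 3, with 5 of 8 higher in both fits. The clearest was dd_329, whose best human match is CTSD, the aspartic peptidase of lysosomes.

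dd_329 measured 954, 950.4 and 969 CPM in controls and 1066, 1031 and 1057 CPM in *hmcn-1(RNAi)*. Every *hmcn-1(RNAi)* pool lay above every control pool, and the spread between pools of a condition was the narrowest of the 65 contigs. The mean was 958 ± 9.84 CPM in controls and 1051 ± 18.2 CPM in *hmcn-1(RNAi)* (SD, n = 3). On the log2 scale the difference was 0.13 ± 0.04 (SE; adjusted p = 0.0574, edgeR). With DESeq2 its adjusted p was 0.0354 for the same log2 fold change. Run without its independent filtering, DESeq2 called 0 of the 65 contigs, as did limma-voom.

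dd_456 (CTSF), a cysteine cathepsin with a cystatin domain, measured 956, 885 and 814 CPM in controls and 957, 1038 and 923 CPM in *hmcn-1(RNAi)*. Control replicate 1 was level with *hmcn-1(RNAi)* replicate 1, so the conditions overlapped (log2 fold change 0.14 ± 0.06; adjusted p = 0.434, edgeR). Without control replicate 1 the log2 fold change was 0.19, with an adjusted p of 0.0434 from edgeR. No other fit that left out 1 library called dd_456, and its log2 fold change over those fits ran from 0.08 to 0.19. dd_582 (CTSV), another cysteine cathepsin, measured 379, 348 and 403 CPM against 379.8, 429 and 411 CPM, again with overlap (0.11 ± 0.05; unadjusted p = 0.0496).

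The other 5 cathepsins spanned 0. dd_1975 (CTSL), dd_4773 (CTSA) and dd_2268 (CTSV) had log2 fold changes of 0.12, 0.07 and 0.05, and dd_175 (CTSV) and dd_785 (CTSA) had -0.02 and -0.07. CTSA is a serine carboxypeptidase of lysosomes, and its 2 matches here lay on opposite sides of 0. dd_2268 was among the more variable contigs for its level, with 76.0 CPM in *hmcn-1(RNAi)* replicate 1 and 58.7 and 59.4 CPM in the other pools of that condition.

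Cathepsin-family contigs assigned to other tissues or to none were split about 0. Of 13 such contigs 7 were tested, 4 higher and 3 lower, with a median of 0.01 and 0 called (2 at an unadjusted p under 0.05, beside 11.0% of all contigs). The intestinal CTSL-like dd_48 was higher without overlap (0.10 ± 0.04), and the epidermal CTSL-like dd_1363 was lower without overlap (-0.16 ± 0.06), with adjusted p of 0.295 and 0.217 from edgeR. Contigs of this family can be close in sequence, and how reads that fit more than 1 contig were shared was not given beyond bowtie's -best setting, so the split of reads between them is uncertain.

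Among the other peptidases and the inhibitor, 4 of 8 were higher and 4 lower (median 0.04, and 0.02 to 0.07 when 1 library was left out), with 2 at an unadjusted p under 0.05 (11.0% of all contigs) and 0 passing the adjusted test. *mt-mmpA*, a matrix metalloproteinase, measured 127, 137 and 136 CPM in controls and 156, 148 and 147 CPM in *hmcn-1(RNAi)*. All 3 *hmcn-1(RNAi)* pools lay above all controls (133 ± 5.53 and 150.3 ± 5.06 CPM, SD, n = 3). Its log2 fold change was 0.18 ± 0.05, with an adjusted p of 0.0779 from edgeR.

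*a2ml1*, related to the alpha-2-macroglobulins that trap peptidases of many kinds, drew the most reads of the 67 contigs. It measured 2971, 2904 and 2755 CPM in controls and 3137, 3291 and 2903 CPM in *hmcn-1(RNAi)*. *hmcn-1(RNAi)* replicate 3 lay level with control replicate 2, so the conditions overlapped (log2 fold change 0.11 ± 0.04; adjusted p = 0.253, edgeR).

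Of the astacin-type metalloproteinases, the tolloid-like ones stayed close to 0 and the meprin-like one was slightly higher. dd_1967 (TLL1) and dd_3177 (TLL2), which match the tolloid-like enzymes that trim procollagens in vertebrates, had log2 fold changes of -0.01 and -0.03, and dd_2307 (MEP1B), matching a meprin, had 0.10 ± 0.06 with overlap. dd_198 (CELA1), an elastase-like serine peptidase, had -0.02, and dd_8779 (PCSK5), matching a proprotein convertase, had 0.08. dd_18278 (TMPRSS15), a trypsin-like serine peptidase, had the lowest value of all 65 at -0.25 ± 0.23 (adjusted p = 0.757, edgeR), from only 20 to 36 reads a library. It measured 3.22, 3.87 and 3.28 CPM in controls and 2.81, 2.85 and 3.05 CPM in *hmcn-1(RNAi)*, all lower without overlap.

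**Figure D3:**
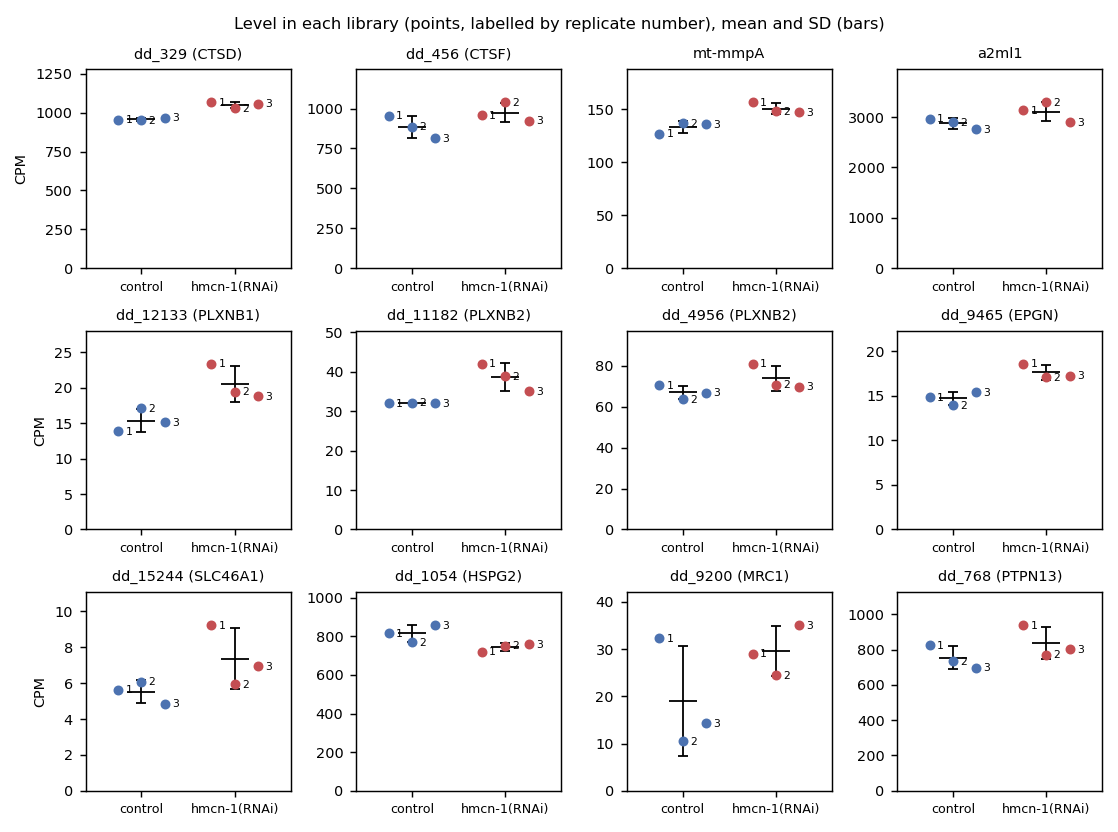
Each panel shows one contig, with CPM in each of the 6 libraries as points labelled by replicate number, and the mean and SD of the 3 libraries of a condition as bars, on axes from 0. dd_329, *mt-mmpA*, dd_12133, dd_11182 and dd_9465 lie higher and dd_1054 lies lower in all *hmcn-1(RNAi)* libraries, and dd_9200 varies widely within the controls.

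Core matrix glycoproteins of high confidence were near their control level, with 5 of 7 higher, 2 lower, a median of 0.04 (0.01 to 0.06 when 1 library was left out) and 0 at an unadjusted p under 0.05. dd_8833 (HMCN2), itself hemicentin-like, measured 124, 116 and 118 CPM in controls and 125, 129 and 127 CPM in *hmcn-1(RNAi)*. Its *hmcn-1(RNAi)* pools lay just above the controls (0.10 ± 0.05; adjusted p = 0.493, edgeR). dd_652 (MRC1), a mannose receptor-like C-type lectin, measured 1367, 1300.0 and 1318 CPM against 1473, 1358 and 1316 CPM, with overlap (0.06 ± 0.04).

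dd_6736, matching tenascin-C, and dd_7311, matching the latent TGF-beta binding protein LTBP2, had log2 fold changes of 0.03 and 0.04. dd_12472, with DLL4 as its best match, and dd_12201, matching anosmin-1, had -0.06 and -0.01. None of these 4 lay apart between conditions.

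dd_9200 (MRC1), a second lectin of this kind, stood out by its spread. It measured 32.4, 10.5 and 14.3 CPM in controls and 29.0, 24.5 and 35.1 CPM in *hmcn-1(RNAi)*. Control replicate 1 was within the range of the *hmcn-1(RNAi)* pools and the other controls were well below it. Its log2 fold change was the highest of the 65 at 0.71 ± 0.46 (95% interval -0.55 to 1.98; adjusted p = 0.688, edgeR), and without control replicate 1 it was 1.27 with an adjusted p of 0.0122, a call that rested on leaving that pool out.

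The glycoproteins of low confidence with immunoglobulin domains, most with LDL-receptor repeats, held the only contig that was lower at an unadjusted p under 0.05. dd_1054 (best match HSPG2, perlecan) measured 818, 769 and 858 CPM in controls and 721, 750.3 and 760.0 CPM in *hmcn-1(RNAi)*. All *hmcn-1(RNAi)* pools lay below all controls (815 ± 44.5 and 744 ± 20.3 CPM, SD, n = 3). Its log2 fold change was -0.13 ± 0.04 with an adjusted p of 0.130 from edgeR, and ran from -0.17 to -0.09 when 1 library was left out. The -0.17 came without control replicate 2, with an adjusted p of 0.0382 from edgeR. No other fit called it.

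The similar dd_1581 and dd_3527 had -0.05 and 0.03, and the hemicentin-like dd_1789 (HMCN1) had 0.07, all with overlap. Of these 4 contigs 2 were higher and 2 lower, with a median of -0.01 that ran from -0.04 to 0.01 when 1 library was left out.

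Proteins affiliated with the matrix showed no lean, with a median of -0.02 (-0.03 to 0.00 when 1 library was left out) and 0 at an unadjusted p under 0.05. Of the 4, 1 was higher and 3 lower, *glypican-2* by less than 0.01 on the log2 scale, and 2 were higher in 4 of the 6 fits without 1 library. dd_7422 (NCAM1), matching a neural cell adhesion molecule, measured 98.3, 103 and 106 CPM in controls and 96.7, 97.8 and 94.8 CPM in *hmcn-1(RNAi)*, lower without overlap (-0.09 ± 0.05; adjusted p = 0.587, edgeR). *glypican-2*, a membrane-anchored heparan sulfate proteoglycan, was almost level, with 185, 177 and 183 CPM against 186, 182 and 176 CPM. dd_3240 (MXRA5) and dd_5005 (ICAM5), both with immunoglobulin domains, had 0.06 and -0.04.

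Both secreted signaling factors were higher, with wide intervals (median 0.13, and 0.05 without control replicate 3). *activin-2*, a ligand of the TGF-beta family, measured 87.5, 76.0 and 67.6 CPM in controls and 82.4, 94.0 and 80.5 CPM in *hmcn-1(RNAi)*, with overlap (0.16 ± 0.09; adjusted p = 0.594, edgeR). *nlg-3*, a noggin-like gene of the family that binds BMP ligands, measured 9.66, 11.8 and 9.22 CPM against 12.5, 9.72 and 11.0 CPM (0.11 ± 0.14).

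The plexins were all higher in *hmcn-1(RNAi)*, 6 of 6. Of these, 3 had an unadjusted p under 0.05 (5.5% of all contigs were higher at that level), 2 did not overlap (7.81%), and 0 passed the adjusted test. The median log2 fold change was 0.14. dd_12133 (PLXNB1) measured 13.85, 17.1 and 15.2 CPM in controls and 23.4, 19.4 and 18.8 CPM in *hmcn-1(RNAi)*.

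All *hmcn-1(RNAi)* pools of dd_12133 lay above the controls, replicate 1 furthest (15.4 ± 1.63 and 20.5 ± 2.50 CPM, SD, n = 3; from 86 to 222 reads a library). Its log2 fold change was 0.40 ± 0.11 with an adjusted p of 0.0759 from edgeR. dd_11182 (PLXNB2) was nearly constant in controls, at 32.05, 32.09 and 32.02 CPM, and measured 42.0, 38.9 and 35.02 CPM in *hmcn-1(RNAi)*. It was higher in every *hmcn-1(RNAi)* pool, with replicate 3 closest to the controls (0.26 ± 0.08; adjusted p = 0.124, edgeR).

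dd_4956 (PLXNB2) measured 70.4, 63.7 and 66.8 CPM in controls and 80.9, 70.6 and 69.8 CPM in *hmcn-1(RNAi)*, where only replicate 1 was clear of control replicate 1 by more than 1 CPM (0.14 ± 0.06; adjusted p = 0.405, edgeR). dd_3573 (PLXNB2) was also highest in *hmcn-1(RNAi)* replicate 1, with 92.9, 90.1 and 81.9 CPM against 111, 91.4 and 91.3 CPM (0.15 ± 0.07). dd_13016 (PLXNB2) and dd_11809 (PLXND1) had 0.07 and 0.03. In all 6 plexins *hmcn-1(RNAi)* replicate 1 was the highest library.

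The lean of the plexins rested in part on that pool. Without *hmcn-1(RNAi)* replicate 1, 4 of 6 were higher, the median was 0.06 and 2 had an unadjusted p under 0.05 (8.92% of all contigs in that fit). The contigs of this family assigned to other tissues held only 1 plexin, the epidermal dd_11934 at -0.02 ± 0.07. The rest were semaphorins, the ligands of plexins. Of these 5 contigs 1 was higher and 4 lower, from -0.06 to 0.02, with a median of -0.03. None lay apart between conditions and 0 were called (0 at an unadjusted p under 0.05).

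The Notch, Jagged and EGF-repeat proteins were all higher as well, 5 of 5, with a median of 0.11, 1 at an unadjusted p under 0.05 (5.5% of all contigs) and 0 passing the adjusted test. Without *hmcn-1(RNAi)* replicate 1, 4 of 5 were higher, with a median of 0.08 and 0 at an unadjusted p under 0.05. It was also 4 of 5 without control replicate 1 or without control replicate 3. dd_9465, with the EGF-family ligand epigen (EPGN) as best match, measured 14.8, 13.9 and 15.4 CPM in controls and 18.6, 17.1 and 17.3 CPM in *hmcn-1(RNAi)*. The conditions did not overlap (0.26 ± 0.11; adjusted p = 0.343, edgeR). dd_9663 (NOTCH3) also lay apart, at 32.9, 31.2 and 33.8 CPM against 35.8, 34.6 and 35.02 CPM (0.11 ± 0.08; adjusted p = 0.671, edgeR).

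dd_2031 (NOTCH3) measured 88.4, 84.1 and 86.1 CPM in controls and 97.1, 87.4 and 94.8 CPM in *hmcn-1(RNAi)*, with overlap of a single pair (0.11 ± 0.06). dd_10221 (JAG1), matching a Notch ligand, and dd_12732 (NOTCH1) had 0.06 and 0.03. Of 12 Notch, Delta and Jagged contigs assigned to other tissues or to none, 10 were tested, 5 higher and 5 lower (median -0.04). Of those tested, 1 passed the test (1.13% of all contigs), the muscle-assigned NOTCH1-like dd_4789, which fell (-0.19 ± 0.04; adjusted p = 0.0266, edgeR). It measured 235, 231 and 249.7 CPM in controls and 213, 212 and 204 CPM in *hmcn-1(RNAi)*.

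The remaining receptor-like and membrane proteins numbered 13, with 9 higher, 4 lower, a median of 0.08, 1 at an unadjusted p under 0.05 (11.0% of all contigs) and 0 passing the adjusted test. dd_15244, matching the proton-coupled folate transporter SLC46A1, measured 5.64, 6.09 and 4.85 CPM in controls and 9.24, 5.93 and 6.94 CPM in *hmcn-1(RNAi)*. *hmcn-1(RNAi)* replicate 1 was far above the rest and replicate 2 was within the controls (0.41 ± 0.18; adjusted p = 0.385, edgeR; 35 to 82 reads a library). dd_11408, with a kringle-type match to the plasminogen activator PLAU, measured 32.05, 31.98 and 30.56 CPM against 34.97, 35.8 and 34.6 CPM, a small gap without overlap (0.16 ± 0.08; adjusted p = 0.465, edgeR).

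dd_768, matching the tyrosine phosphatase PTPN13 and carrying fibronectin type III domains, was highest in replicate 1 of both conditions. It measured 826, 736 and 698 CPM in controls and 939, 771 and 803 CPM in *hmcn-1(RNAi)*, with overlap (0.15 ± 0.11; adjusted p = 0.710, edgeR). With the replicate number as a block its adjusted p was 0.0316 from edgeR, although nothing in the labels says that the numbers pair the pools.

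dd_2864 (LRRC24), a leucine-rich repeat protein, was lower without overlap, at 139, 130.4 and 139 CPM against 127, 124 and 129.8 CPM (-0.10 ± 0.05; adjusted p = 0.463, edgeR). dd_3432 (SCUBE1), dd_8494 (ROBO2, matching a receptor for Slit) and dd_10468 had -0.09, -0.06 and -0.03, with overlap. dd_13311, matching the ferric reductase FRRS1, had 0.26 ± 0.14, with 7.57, 12.3 and 9.22 CPM in controls and 12.4, 10.9 and 12.0 CPM in *hmcn-1(RNAi)*, so that 1 control pool sat among the *hmcn-1(RNAi)* pools. The other 5, dd_3774 (HGF), dd_5207 (MRC2), dd_3513 (IGFALS), dd_7461 and dd_16012, ranged from 0.04 to 0.14, with overlap.

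The last 10 contigs lacked a confident human match or a signal peptide and were placed in no other role, whereas some contigs of other roles lacked these too. Of the 10, 8 were tested, 7 higher and 1 lower, with 0 at an unadjusted p under 0.05 and 0 apart between conditions. Their median was 0.14, but 0.06 without control replicate 3 and 0.05 without *hmcn-1(RNAi)* replicate 1. dd_1109, matching KY, a transglutaminase-like protein of human muscle, measured 538, 514 and 519.6 CPM in controls and 556, 549 and 521 CPM in *hmcn-1(RNAi)* (0.05 ± 0.04). dd_74 measured 1004, 1026 and 998 CPM against 1069, 937 and 948 CPM (-0.04 ± 0.04). The highest value was that of dd_12855, 0.20 ± 0.14, with 14.2, 12.7 and 10.7 CPM in controls and 17.7, 12.7 and 12.7 CPM in *hmcn-1(RNAi)*.

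dd_4401, matching ADAMTSL3, had 0.19 ± 0.11. The study's table linked this contig (ending _1_1) to another transcript of the same number (ending _0_1), which had 0.06 ± 0.12 and also overlapped. dd_9111, dd_8063, dd_7042 and dd_16782 had values from 0.10 to 0.18, the last from few reads with an SE of 0.36. dd_21787 and dd_41732 did not pass the filter, with 1 to 7 and 0 to 2 reads a library, and were not tested.

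The contigs fell into 8 clusters of the atlas. In cluster 17, which held dd_329, dd_456, dd_1975, the plexins dd_4956, dd_11182 and dd_12133, dd_4401, dd_12855 and the untested dd_41732, all 8 tested contigs were higher, with a median of 0.16 and 5 at an unadjusted p under 0.05 (5.5% of all contigs were higher at that level). Without *hmcn-1(RNAi)* replicate 1 all 8 were still higher, with a median of 0.12 and 3 at that level (8.92% of all contigs in that fit, in either direction). Cluster 42, with 11 contigs, was split into 6 higher and 5 lower (median 0.03, between -0.02 and 0.04 when 1 library was left out) and held 3 of the 4 contigs that were lower without overlap (dd_1054, dd_7422 and dd_18278), beside *mt-mmpA*, which was higher.

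Cluster 10, the largest with 17 contigs, had 13 higher and 4 lower (median 0.10), and cluster 39 had 5 higher and 1 lower (median 0.08). Clusters 31 and 28 had medians of 0.04 and 0.04, with 7 of 11 and 4 of 7 higher, and the latter was -0.02 without *hmcn-1(RNAi)* replicate 1. Cluster 41 had 3 of 4 tested contigs higher (median 0.07), and cluster 15 held only dd_16782. Differences between clusters were not tested.

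In sign, the contigs that mark the class best were split about evenly. Of the 21 with an AUC over 0.8 in the atlas, a measure of how well a transcript marks its cell type, 11 were higher and 10 lower, with a median of 0.05. Of the 21, 6 had an unadjusted p under 0.05 (11.0% of all contigs), 5 of them higher and 1 lower. Of the 44 tested contigs at or under an AUC of 0.8, 36 were higher and 8 lower, with a median of 0.09. Of these, 5 had an unadjusted p under 0.05, all higher (5.5% of all contigs were higher at that level). Contigs outside the matrisome had a median of 0.11 (28 of 34 higher) and those inside it 0.05 (19 of 31 higher). These subsets share libraries and overlap in members, and no test of their difference was made.

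Contigs chosen in the same way for other tissues had medians on both sides of 0. The intestine-assigned contigs had a median of 0.09 (20 of 24 tested were higher, 2 passed the test, beside 1.13% of all contigs). The neural-assigned contigs had -0.07 (21 of 75 higher, 1 passed the test) and the muscle-assigned contigs -0.12 (11 of 34 higher, 1 passed the test). At an unadjusted p under 0.05 were 37.5% of the intestine-assigned, 17.3% of the neural-assigned and 35.3% of the muscle-assigned contigs. This share was 16.9% for the cathepsin+ cell-assigned contigs and 11.0% for all contigs. The cathepsin+ cell-assigned median of 0.07 was thus close to the intestinal one in these pools, while that share was lower. No difference between these sets was tested.

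**Figure D4:**
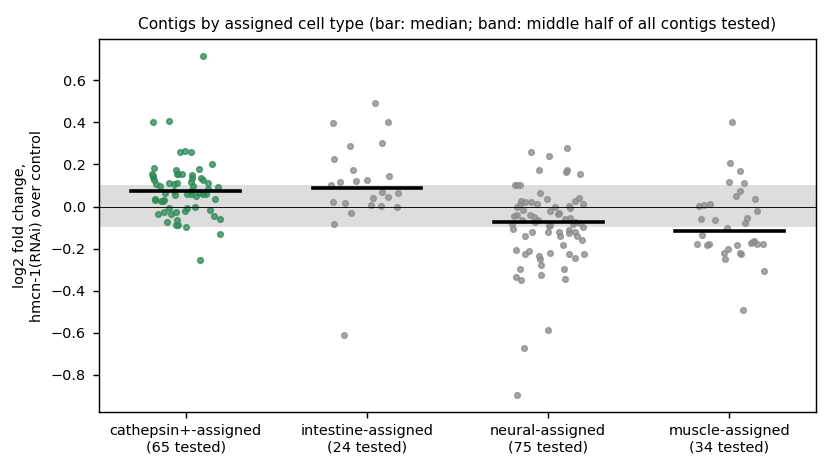
Each point is the log2 fold change of one contig, *hmcn-1(RNAi)* over control, for contigs assigned to 4 cell types, with the median of each set as a bar and the middle 50% of all contigs tested (-0.09 to 0.10) as a gray band. The medians are 0.07 for cathepsin+, 0.09 for intestine, -0.07 for neural and -0.12 for muscle.

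Agreement between tail pools set how small a difference could be seen. The SD of log2 CPM between pools of one condition had a median of 0.08 over the 65 contigs, beside 0.12 over all contigs tested. For contigs over 100 CPM it was 0.06 for 26 of the 65 and 0.05 for all, and for contigs under 100 CPM it was 0.10 for 39 and 0.14 for all. The widest were dd_9200 at 0.60, dd_16782 at 0.41 and dd_13311 at 0.25, and dd_329 was the narrowest at 0.02.

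**Figure D5:**
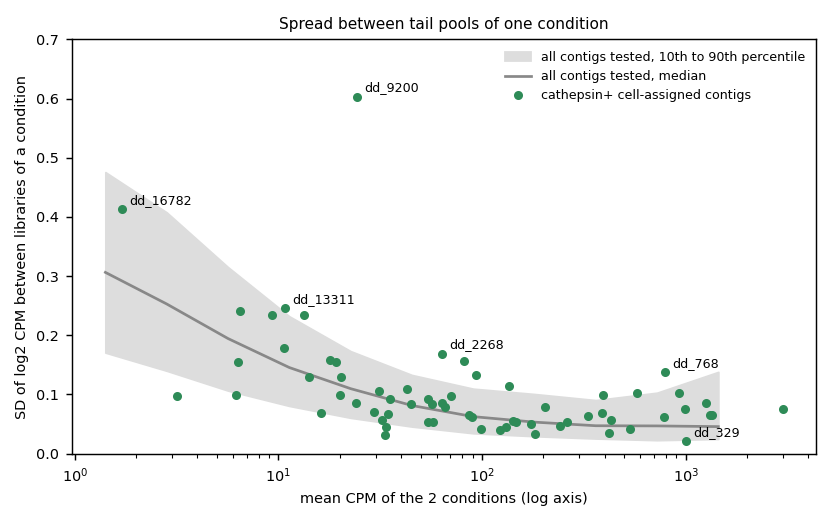
Each point is one of the 65 contigs, with its mean CPM over both conditions on a log axis and the SD of log2 CPM between libraries of a condition on the other, over the median and the 10th to 90th percentile of all contigs tested. Most points follow the gray band, whereas dd_9200 lies far above it at an SD of 0.60.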

How the data were processed

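The deposited table holds raw counts of reads per contig: per the methods and the submitters' processing notes, the authors mapped poly(A) reads with Bowtie 1.2.2 (-best) to the dd_Smed_v6 transcriptome and summed them per contig with SAMtools 1.9. Whether counting used strand: not given in the sources used here. A second deposited table holds the authors' DESeq2 comparison (mean, fold change, standard error, statistic, p-values) and was not used. Contigs were chosen from the study's supplementary tables by changing the assembly version in their names, and the roles follow the best human match at an E value under 0.01 and the listed domains. Members and lists were chosen with earlier results of these data known.

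Contigs passing filterByExpr (minimum count 10) were tested with edgeR 4.0.16 (R 4.3.3; TMM factors 0.977 to 1.02, robust quasi-likelihood fit, condition only, common biological coefficient of variation 6.28%), with Benjamini-Hochberg adjustment over all contigs tested and a threshold of 0.05. Levels are CPM on TMM-scaled totals, not corrected for length, so they are compared within a contig. SDs of log2 used a pseudocount of 0.5 CPM. The procedure was checked on simulated data with planted changes larger than any fitted for these contigs, so the check did not cover differences of their size. Alternatives were RLE and upper quartile factors, no filter, a filter of 100 counts or more in 3 libraries, limma-voom (limma 3.58.1), DESeq2 1.42.0 (run with its independent filtering and again without it), a replicate block, no robust shrinkage, leaving out each library, and thresholds of 0.01 and 0.10. Named contigs are those with an unadjusted p under 0.05, those whose conditions do not overlap, the extremes of fold change and spread, the highest of each role and those not tested, and others are given by value for completeness.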

Additional observations from a re-analysis of the deposited data

How the results depend on the processing

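The upward lean kept its direction under every alternative run (42 to 53 of 65 contigs higher, or 42 of 59 under the filter of 100 counts, with medians of 0.03 to 0.10). Of the 65, 49 had the same sign in every alternative fit that tested them, and 6 were not tested under the filter of 100 counts. The number of cathepsin+ cell-assigned contigs called was 0, beside 1.13% of all contigs. It became 5 with no filter on low counts (1.24%), 1 with DESeq2 (2.43% of the contigs it adjusted) and 3 at an adjusted p under 0.10 (1.81%). With DESeq2 run without independent filtering it stayed at 0 (0.515%). When 1 library was left out it was 0 to 2, with 2 without control replicate 1 (1.63%) and 1 without control replicate 2 (0.767%). Contigs without overlap numbered 12, beside 15.6% of all contigs, and 17 to 27 when 1 library was left out, where fewer libraries separate more easily. The share over all contigs was not taken for those fits, so their counts cannot be set against it. Contigs called over the whole table were 173, and 339 with no filter, 112 with DESeq2, 79 with DESeq2 without independent filtering, 73 with limma-voom, 48 without robust shrinkage, 76 at an adjusted p under 0.01, 278 at 0.10 and 75 to 255 when 1 library was left out. The cause of these changes was not tested. The labels number the pools 1 to 3 in both conditions and do not say whether the numbers pair the pools. Same-numbered pools deviated together weakly (correlations of 0.02, 0.09 and 0.01 across contigs), and pools of unlike number had -0.07 to 0.05. With 3 pools a condition these values cannot settle whether the pools were paired. With the replicate block 2 of the 65 contigs (dd_12133 and dd_768) and 292 of all contigs were called. With 3 pools a condition, contigs of few reads had intervals too wide to show differences of the size seen in the abundant ones.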

Other observations

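The 5 cathepsin+ cell-assigned contigs that were left out held the widest swings between tail pools. The mannose receptor-like dd_3193 (MRC1) measured 71.7, 31.5 and 60.2 CPM in controls and 71.5, 77.3 and 242.7 CPM in *hmcn-1(RNAi)*, where replicate 3 alone was high (log2 fold change 1.31 ± 0.70; adjusted p = 0.622, edgeR). The fibrillin-like dd_1748 (FBN2) measured 21.8, 16.3 and 37.2 CPM against 91.2, 27.0 and 62.1 CPM, where replicates 1 and 3 were high (1.26 ± 0.61; adjusted p = 0.583, edgeR). In dd_9200, which has the same human match as dd_3193, a control pool was the one that stood apart. The cathepsin C-like dd_642 measured 404, 402 and 401 CPM in controls and 472, 409 and 434 CPM in *hmcn-1(RNAi)*, higher without overlap (0.13 ± 0.04; adjusted p = 0.222, edgeR), and replicate 1 was again its highest pool. *spon1* and the *ADAM10*-like contig had -0.09 and -0.04.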
